A study of Bos indicus with 8 samples.

Results

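Aminoacyl-tRNA synthetases are the enzymes that load each amino acid onto its matching transfer RNA. They were followed here in vitrified and in control bovine blastocysts, through every array probe whose annotated gene symbol was one of 36 synthetase genes. Of these, 20 were taken as the cytosolic set and 16 as the mitochondrial set, by the symbol alone. The genes were chosen for study with earlier results of these data known. The annotation named 43 probes of 28 of these genes among the 43794 gene probes of the array, 23 probes of 16 cytosolic genes and 20 probes of 12 mitochondrial genes. The 28 genes stand among 15229 with a symbol on the array. Of the 43 probes, 40 were above background on at least 4 of 8 arrays in the vitrified or the control channel, and all 28 genes kept at least 1 such probe. DARS, EPRS, QARS, VARS, AARS2, EARS2, HARS2 and VARS2, for aspartate, glutamate with proline, glutamine, valine, alanine, glutamate, histidine and valine, had no probe under their symbols and were not analysed here.

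The vitrified group was grade I Bos indicus blastocysts made by in vitro maturation, fertilization and culture and graded 144 to 156 h after insemination. They were plunged into liquid nitrogen on a Cryotop, a thin strip that carries embryos in a very small volume, in 15% ethylene glycol, 15% dimethylsulfoxide and 0.5 M sucrose. After at least 30 min they were warmed through 1 M sucrose and cultured for 4 h. The control group was blastocysts of the same grade and production, held at the bench in handling medium during that time and then cultured for the same 4 h. Each sample was total RNA from a pool of 10 embryos, and embryos without a normal appearance at the end of culture were left out of either group, so the values describe embryos that came through the procedure. The bull's semen was Bos indicus; the labels do not give the breed of the oocytes. RNA was amplified before labelling, and in such bulk RNA fewer cells of a type and less RNA per cell cannot be told apart.

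Each of the 8 arrays carried a vitrified pool in one dye and a control pool in the other. The vitrified pool was in Cy5 on areas 1 and 3 of each of 2 slides and in Cy3 on areas 2 and 4. Arrays on areas 1 and 2, and on areas 3 and 4, were averaged as a dye-swap pair, giving pairs 1 and 2 on slide 1 and pairs 3 and 4 on slide 2. The 2 slides, 4 areas each, are the only batches that the labels show, and each holds both groups. Between 72.3% and 79.2% of gene spots exceeded the background limit on 7 arrays, against 28.0% on slide 2 area 1, where the limit rested on scattered negative controls (76.3% with their median and median absolute deviation). Of the blastocyst markers with a tested probe, 11 of 19 of trophectoderm (KRT8, KRT18, TFAP2C, IFNT and DAB2 among them), 5 of 11 of the inner cell mass (NANOG and POU5F1 among them) and 7 of 9 of primitive endoderm (GATA4 among them) were above background on 8 of 8 arrays in both channels. CDX2, GATA3, ELF5, TEAD4, SOX2, FGF4 and SOX17 were among those that were not. Of all 13136 named genes tested, 5738 met this rule. CDX2 and GATA3 were above background on 7 of 8 arrays in each channel. With the limit from the median and median absolute deviation they were so on 8 of 8.

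A mammalian cell keeps separate synthetases for its cytosol and for its mitochondria, all of them encoded in the nucleus. The cytosolic enzymes supply general protein synthesis, and several of them, among them IARS, LARS, MARS, RARS and KARS, sit in a large multi-synthetase complex held together by scaffold proteins. The mitochondrial enzymes supply the few respiratory chain subunits made inside the organelle. In mouse and human cells, many cytosolic synthetase genes are transcribed under ATF4, a transcription factor made when amino acids are short or the endoplasmic reticulum is stressed. GARS and KARS each encode the cytosolic and the mitochondrial form of their enzyme, so their place in the cytosolic set is by symbol.

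Cytosolic synthetase transcripts gave mostly lower signal in vitrified than in control blastocysts, and no single gene passed the test. The ratio of vitrified over control lay below 0 on the log2 scale for 14 of 16 cytosolic genes, with a median log2 ratio of -0.16. In the same processing 48.1% of all 13136 named genes tested lay below 0 and their median was 0.00. The cytosolic count was 13 of 16 with the mean over a gene's probes. It was 16 of 16 with median centring of each array in place of loess. GARS, IARS, SARS and TARS had the lowest values, with folds of 0.680, 0.728, 0.756 and 0.761. In the mitochondrial set 7 of 12 genes lay below 0, and the median log2 ratio was -0.01. That count was 10 of 12 without pair 3, 3 of 12 without pair 4, and 3 of 12 with scaling between arrays after loess. The difference of the medians, cytosolic minus mitochondrial, was -0.15 on the log2 scale.

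With limma's moderated test over the 4 pairs and Benjamini-Hochberg adjustment over all 34912 probes, 0 probes of the array passed an adjusted p of 0.05, 0% of those tested, and the synthetases' adjusted p-values were 0.511 to 0.998 for cytosolic and 0.844 to 0.999 for mitochondrial genes. At an unadjusted p under 0.05, 2464 probes (7.06%) differed in either direction. By 1 probe a gene, 6 of 16 cytosolic genes were lower at that level, where 4.6% of named genes were, and 0 of 12 mitochondrial genes were lower or higher (4.49% of named genes were higher). GARS, IARS, SARS, MARS and NARS, 5 of those 6, were below 0 in all 4 pairs, where 6.88% of named genes were. TARS was the remaining gene. Without pair 4 the cytosolic count was 3 and 3 of 12 mitochondrial genes were at that level in either direction, against 2 without pair 3 and 1 without pair 2. The p-values measure the spread between these pools, which the labels call biological replicates without saying that they came from separate cultures. When the arrays were averaged instead by labelled replicate number, 8 of 16 cytosolic genes were lower at an unadjusted p under 0.05, where 8.65% of named genes were, and 0 probes passed after adjustment.

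**Figure D1:**
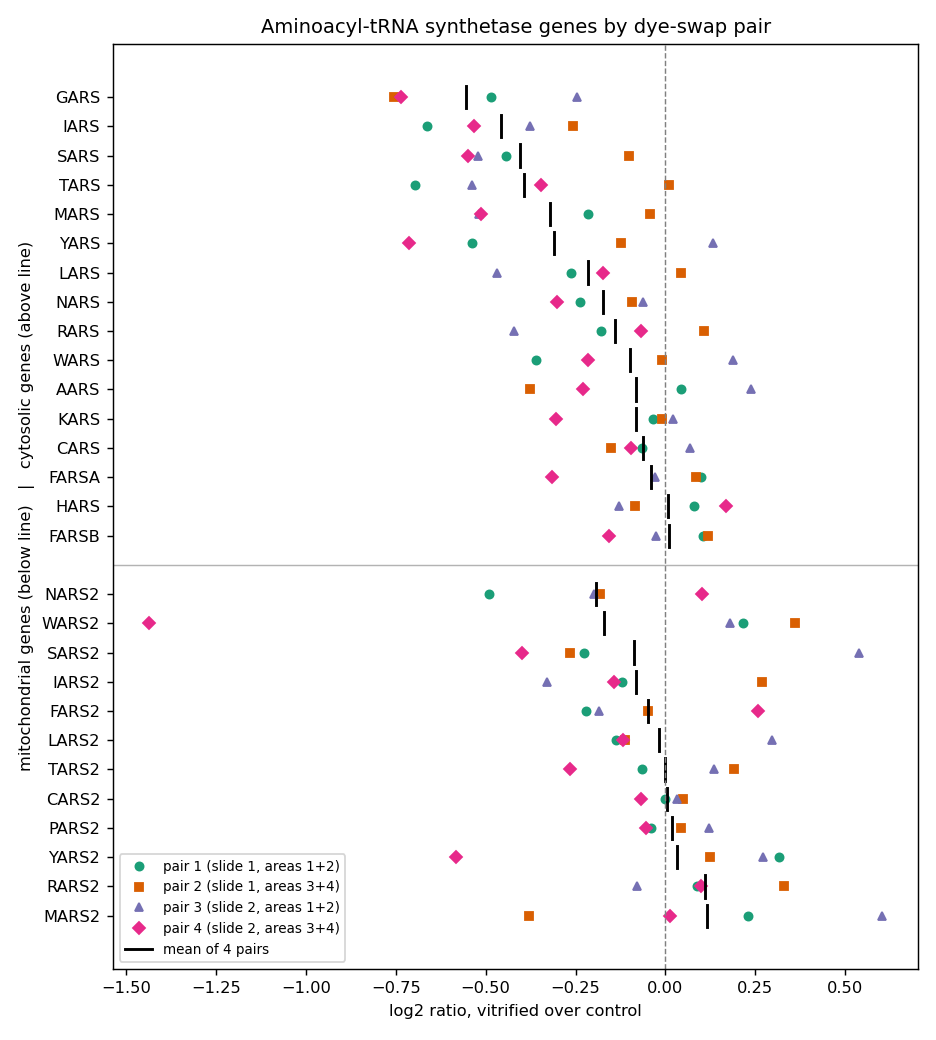
Log2 ratio of vitrified over control on the horizontal axis for the 28 synthetase genes, 1 row a gene, cytosolic genes above the grey line and mitochondrial genes below it. Symbols mark the 4 dye-swap pairs and black bars their mean; 14 of 16 cytosolic means and 7 of 12 mitochondrial means lie left of 0.

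GARS, which charges glycine, had the lowest mean ratio of the 28 genes. Its normalised channel intensity was 11909, 12011, 13480 and 11183 in vitrified pools of pairs 1 to 4, against 16674, 20265, 15998 and 18626 in control pools. Channel levels were not scaled between arrays, so the ratio within a pair is the firmer measure. The highest vitrified value stayed below the lowest control value, so the groups did not overlap. The share of all named genes with such a gap was not counted. The log2 ratio was -0.49, -0.75, -0.25 and -0.74 in pairs 1 to 4, with a mean of -0.56 ± 0.24 (SD, n = 4 pairs) and a 95% interval of -0.82 to -0.29. The unadjusted p was 0.0032 and the adjusted p from limma was 0.511. All 8 arrays lay below 0, from -0.86 on slide 1 area 3 to -0.19 on slide 2 area 2. Pair 3 stood closest to 0 and the other 3 pairs lay at or below -0.49.

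IARS, the isoleucine enzyme and a member of the complex, had intensities of 4747, 4068, 5368 and 4151 in vitrified pools, against 7522, 4863, 6976 and 5998 in control pools. The vitrified value was the lower one in each pair, but pools of different pairs overlapped, since the vitrified value of pair 3 exceeded the control value of pair 2. The log2 ratio averaged -0.46 ± 0.18 (SD, n = 4 pairs; 95% interval -0.66 to -0.26), with an unadjusted p of 0.0024 and an adjusted p of 0.511 from limma. It was -0.66, -0.26, -0.38 and -0.53 in pairs 1 to 4 and below 0 on 8 of 8 arrays, from -0.78 to -0.07.

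SARS, which charges serine, had intensities of 3004, 2857, 2234 and 1647 in vitrified pools and 4084, 3068, 3205 and 2409 in control pools. Each pair had its vitrified pool lower, while the ranges of the groups overlapped. The log2 ratio of -0.40 ± 0.21 (SD, n = 4 pairs; 95% interval -0.63 to -0.17) came with an unadjusted p of 0.0067 and an adjusted p of 0.520 from limma. Pair 2, at -0.10, stood nearest to 0, and the other pairs were -0.44, -0.52 and -0.55. On single arrays the dye mattered: with the vitrified pool in Cy5 the ratios were -0.73, -0.29, -0.85 and -0.92, and with it in Cy3 they were -0.15, 0.09, -0.19 and -0.18.

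TARS, the threonine enzyme, had intensities of 6749, 8263, 8820 and 8527 in vitrified pools and 10946, 8200, 12819 and 10849 in control pools. Pair 2 showed almost no difference, and in the other 3 pairs the vitrified pool was the lower one. The log2 ratio was -0.70, 0.01, -0.54 and -0.35 in pairs 1 to 4, with a mean of -0.39 ± 0.31 (SD, n = 4 pairs; 95% interval -0.72 to -0.06). The unadjusted p was 0.028 and the adjusted p 0.641 from limma. Of 8 arrays, 7 lay below 0, slide 1 area 4 being the exception at 0.07.

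**Figure D2:**
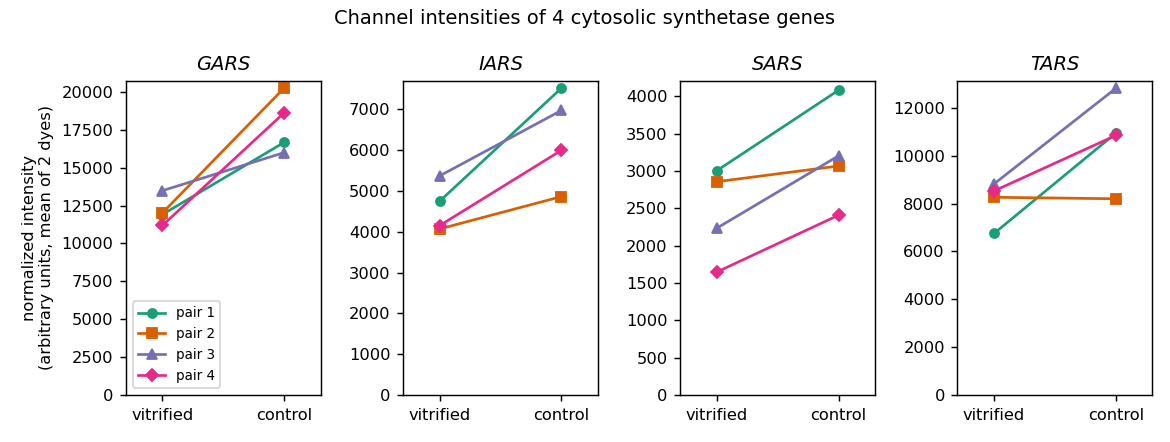
Normalised intensity (vertical axis, arbitrary units, mean over the dyes of a pair) of GARS, IARS, SARS and TARS in vitrified pools (left) and control pools (right) of each panel, with a line for each of the 4 dye-swap pairs. Every line but that of TARS in pair 2 is lower at its vitrified end. The ranges of the groups overlap for IARS, SARS and TARS but not for GARS. The share of all named genes without overlap was not counted.

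MARS, the methionine enzyme of the complex, had intensities of 746, 711, 707 and 580 in vitrified pools and 866, 733, 1012 and 827 in control pools. The vitrified pool was the lower one in each pair, and the ranges of the groups overlapped. Its log2 ratio was -0.22 and -0.04 on slide 1 and -0.52 and -0.51 on slide 2, so the pairs fell into 2 levels by slide. The mean was -0.32 ± 0.23 (SD, n = 4 pairs; 95% interval -0.58 to -0.07), with an unadjusted p of 0.024 and an adjusted p of 0.616 from limma. MARS was the only synthetase of 28 whose ratio differed between slides at an unadjusted p under 0.05 (slide 2 minus slide 1 -0.38, p 0.017, adjusted p 1.00 from limma), where 4.58% of named genes did.

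NARS, which charges asparagine, showed a small difference. Its intensities were 9875, 8952, 9932 and 8094 in vitrified pools and 11645, 9550, 10380 and 9983 in control pools, lower in the vitrified pool in each pair, with overlapping ranges. The log2 ratio was -0.24, -0.09, -0.06 and -0.30 in pairs 1 to 4 and below 0 on 8 of 8 arrays. It had a mean of -0.17 ± 0.11 (SD, n = 4 pairs, 95% interval -0.32 to -0.03), with an unadjusted p of 0.026 and an adjusted p of 0.625 from limma. That mean belongs to the brightest of 3 NARS probes. The others gave -0.06 and 0.03, so the probes of NARS disagreed in sign. The mean over the probes was -0.07, with an unadjusted p of 0.240 from limma.

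YARS, the tyrosine enzyme, varied most between pairs among the cytosolic genes. Its intensities were 1307, 1574, 1775 and 1341 in vitrified pools and 1899, 1715, 1619 and 2196 in control pools, and the ranges overlapped. Pair 3 ran the other way from the rest: the log2 ratio was -0.54, -0.12, 0.13 and -0.71, with a mean of -0.31 ± 0.39 (SD, n = 4 pairs; 95% interval -0.72 to 0.10). The interval holds 0. The mean was -0.18 without pair 4 and -0.46 without pair 3.

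LARS, the leucine enzyme of the complex, had intensities of 1216, 1059, 1141 and 989 in vitrified pools and 1460, 1028, 1579 and 1116 in control pools. Pair 2 was the only pair with the vitrified pool higher, and the ranges overlapped. The log2 ratio averaged -0.22 ± 0.21 (SD, n = 4 pairs; 95% interval -0.45 to 0.02), with an unadjusted p of 0.064 and an adjusted p of 0.749 from limma. Without pair 3, where it was -0.47, the mean was -0.13. On 7 of 8 arrays LARS lay below 0.

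**Figure D3:**
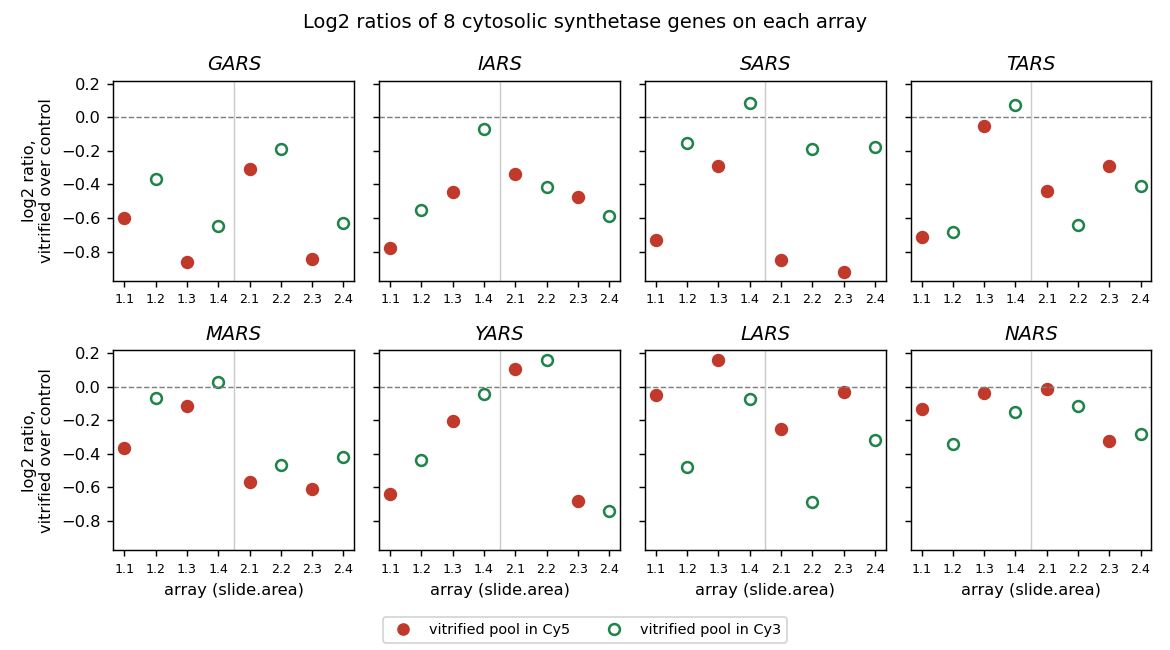
Log2 ratio of vitrified over control (vertical axis) on each of 8 arrays (horizontal axis, slide and area) for GARS, IARS, SARS, TARS, MARS, YARS, LARS and NARS. Filled points have the vitrified pool in Cy5 and open points in Cy3; GARS, IARS and NARS lie below 0 on 8 of 8 arrays, and the points of SARS separate by dye.

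The other 8 cytosolic genes had mean log2 ratios between -0.14 and 0.01, each smaller than its own SD over pairs. RARS, the arginine enzyme of the complex, averaged -0.14 ± 0.22 and lay below 0 in 3 of 4 pairs, but on 4 of 8 arrays only. WARS, which charges tryptophan, averaged -0.10 ± 0.24, and single arrays ran from -1.04 to 0.90, a spread that its dye-swap pairs averaged out. Its other probes gave -0.07 and 0.00. AARS for alanine averaged -0.08 ± 0.27, with -0.01 at its second probe. KARS for lysine averaged -0.08 ± 0.15, with 3 pairs between -0.03 and 0.02 and pair 4 at -0.30. CARS for cysteine averaged -0.06 ± 0.09. Phenylalanine is charged in the cytosol by an enzyme of paired FARSA and FARSB subunits, and these averaged -0.04 ± 0.19 and 0.01 ± 0.13. The second FARSA probe gave 0.10, the opposite sign. HARS for histidine averaged 0.01 ± 0.14. All of these SDs are over n = 4 pairs.

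Inside and outside the multi-synthetase complex, most cytosolic genes lay on the same side of 0. All 5 complex members with a tested probe, IARS, LARS, MARS, RARS and KARS, lay below 0, with a median log2 ratio of -0.22, and so did 9 of the 11 others, with a median of -0.10. Of the scaffold proteins of the complex, AIMP1 was -0.07, AIMP2 0.02 and EEF1E1 0.07, with SDs over the 4 pairs of 0.20, 0.14 and 0.11.

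The mitochondrial genes showed values on either side of 0 that were mostly smaller than their spread over pairs. RARS2 and MARS2, for arginine and methionine, were the highest, at log2 ratios of 0.11 ± 0.17 and 0.12 ± 0.41 (SD, n = 4 pairs). RARS2 had intensities of 5229, 3953, 4176 and 3911 in vitrified pools and 4920, 3147, 4414 and 3652 in control pools, higher in the vitrified pool in 3 of 4 pairs, with overlapping ranges. MARS2 had 1960, 1429, 2481 and 1767 in vitrified pools and 1671, 1860, 1635 and 1753 in control pools, and its pairs ran from -0.38 to 0.60.

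NARS2 for asparagine was the lowest at -0.19 ± 0.24, an unadjusted p of 0.118, with 7 of 8 arrays below 0 and a second, dimmer probe at -0.01. WARS2 for tryptophan averaged -0.17 ± 0.85, a mean made by pair 4: the log2 ratio was 0.22, 0.36 and 0.18 in pairs 1 to 3 and -1.44 in pair 4. Its intensity in pair 4 was 231 in the vitrified pool and 624 in the control pool, and both arrays of that pair were below 0, at -1.26 and -1.61. The remaining 8 mitochondrial genes lay between -0.09 and 0.03. SARS2 for serine averaged -0.09 ± 0.42, IARS2 for isoleucine -0.08 ± 0.25, FARS2 for phenylalanine -0.05 ± 0.22 and LARS2 for leucine -0.02 ± 0.21. TARS2 for threonine averaged 0.00 ± 0.21, CARS2 for cysteine 0.00 ± 0.05, PARS2 for proline 0.02 ± 0.08 and YARS2 for tyrosine 0.03 ± 0.42. SARS2 showed a strong dye effect, with single arrays from -1.78 to 1.91. The probes of a gene disagreed in sign for YARS2, whose second probe gave -0.26, and for TARS2, at 0.00 and -0.03. That YARS2 probe was dim, at a mean log2 intensity of 7.16. It was above background on 2 of 8 arrays in the vitrified channel and 6 of 8 in the control channel. Because it was tested through the control channel alone, the filter itself favoured a lower ratio.

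By pair, the cytosolic median was -0.23, -0.06, -0.10 and -0.30 in pairs 1 to 4, with 12, 11, 11 and 15 of 16 genes below 0. The mitochondrial median was -0.05, 0.05, 0.13 and -0.09, with 8, 5, 4 and 8 of 12 genes below 0. With all tested genes of each set, the cytosolic median was thus the lower one in every pair. Among the brighter genes described below it was not the lower one in pair 2. Pairs 1 and 4 were lower than pairs 2 and 3 in both sets. Trophectoderm and inner cell mass markers also differed by pair. The median log2 ratio of 19 trophectoderm markers was 0.24, 0.22, -0.05 and 0.15 in pairs 1 to 4, with 16 above 0 over the pairs, and that of 11 inner cell mass markers was -0.18, -0.11, 0.04 and -0.42, with 9 below 0. Of 9 primitive endoderm markers, 7 lay below 0, with a median of -0.17. Cumulus cell markers had 6 of 12 below 0 and a median of -0.02, and 0 of 6 oocyte and 0 of 6 sperm markers were above background on all arrays in both channels. That rule includes slide 2 area 1, where 28.0% of gene spots exceeded the limit. These oocyte and sperm markers did pass the filter for testing, with mean log2 intensities of up to 7.92 and 7.61, so they were dim but not shown to be absent. The part of these cell markers in the synthetase values was not tested.

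Probe brightness differed between the sets. The mean log2 intensity over arrays and channels had a median of 11.1 for the cytosolic and 8.64 for the mitochondrial genes. By the limit used, 14 of 16 against 6 of 12 genes were above background on every array in both channels. That gap came mostly from the array whose limit rested on scattered negative controls. Without that array, 16 of 16 cytosolic and 11 of 12 mitochondrial genes were above background on every array in both channels. Dim probes give ratios pressed towards 0: the 5th to 95th percentile of all named genes was -0.10 to 0.08 at a mean log2 intensity of 7.29, against -0.30 to 0.30 at 10.5. Among genes with a mean log2 intensity of at least 9, a limit set after seeing the data, 11 of 12 cytosolic genes lay below 0, with a median of -0.26, and 3 of 5 mitochondrial genes, with a median of -0.02. In pairs 1 to 4 the median of these cytosolic genes was -0.31, -0.03, -0.31 and -0.33. That of these mitochondrial genes was -0.14, -0.18, 0.30 and 0.01, so the order was reversed in pair 2. At that brightness 48.9% of named genes lay below 0 and their median was 0.00. The same 6 cytosolic genes were lower at an unadjusted p under 0.05, where 7.36% of bright named genes were, and 5 lay below 0 in all 4 pairs, where 8.61% did. GARS, IARS, SARS, TARS, MARS and YARS lay outside the 5th to 95th percentile of genes of like brightness, and no mitochondrial gene did.

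**Figure D4:**
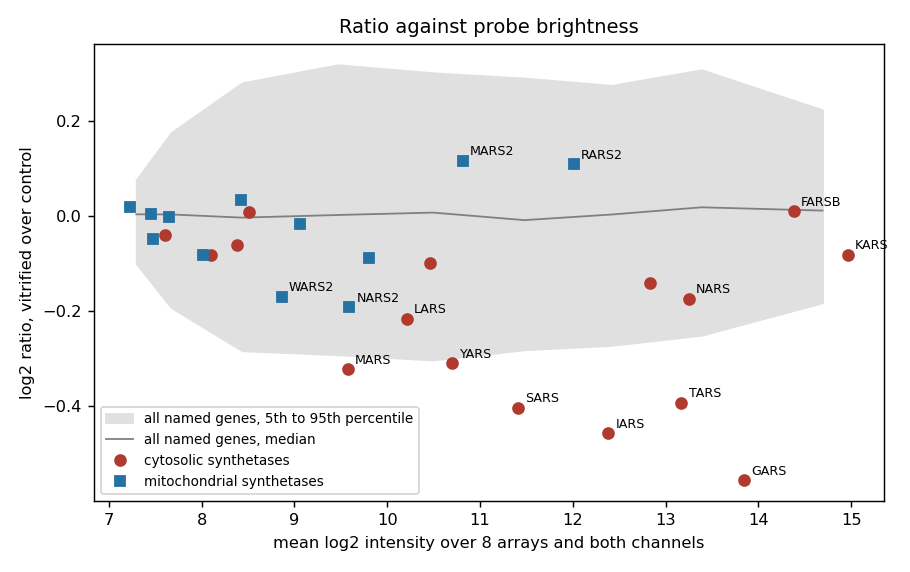
Log2 ratio of vitrified over control (vertical axis) against mean log2 intensity over 8 arrays and both channels (horizontal axis), with cytosolic genes as red circles and mitochondrial genes as blue squares. The grey band spans the 5th to 95th percentile of all named genes at each brightness and the grey line their median; GARS, IARS, SARS, TARS, MARS and YARS lie below the band.

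For 11 amino acids a cytosolic and a mitochondrial gene both had a tested probe, so that the compartments could be compared within the same pools and for the same substrate. The cytosolic gene had the lower ratio for 8 of 11 amino acids, and in all 4 pairs for threonine, isoleucine, tyrosine and arginine. Of these 4, only arginine had both genes at a mean log2 intensity of at least 9. TARS2, IARS2 and YARS2 were dimmer, at 7.65, 8.02 and 8.42. The part of probe brightness in these differences was not tested. For tyrosine the choice of probe mattered too: the second, dim YARS2 probe gave -0.26, close to the -0.31 of YARS. Arginine gave the evenest difference, -0.25 ± 0.07 (RARS minus RARS2, SD, n = 4 pairs), although neither gene alone differed at an unadjusted p under 0.05. The difference was -0.39 ± 0.30 for threonine, -0.38 ± 0.23 for isoleucine and -0.34 ± 0.35 for tyrosine.

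Methionine and serine had large mean differences that turned round in pair 2. MARS minus MARS2 was -0.44 ± 0.60 and SARS minus SARS2 was -0.32 ± 0.52, each below 0 in 3 of 4 pairs. Leucine gave -0.20 ± 0.40 and cysteine -0.06 ± 0.10, also below 0 in 3 of 4 pairs. Phenylalanine, taken as FARSA minus FARS2, was 0.01 ± 0.40, asparagine 0.02 ± 0.29 and tryptophan 0.07 ± 0.80. These differences were described and not tested, since the genes were chosen with results in view.

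**Figure D5:**
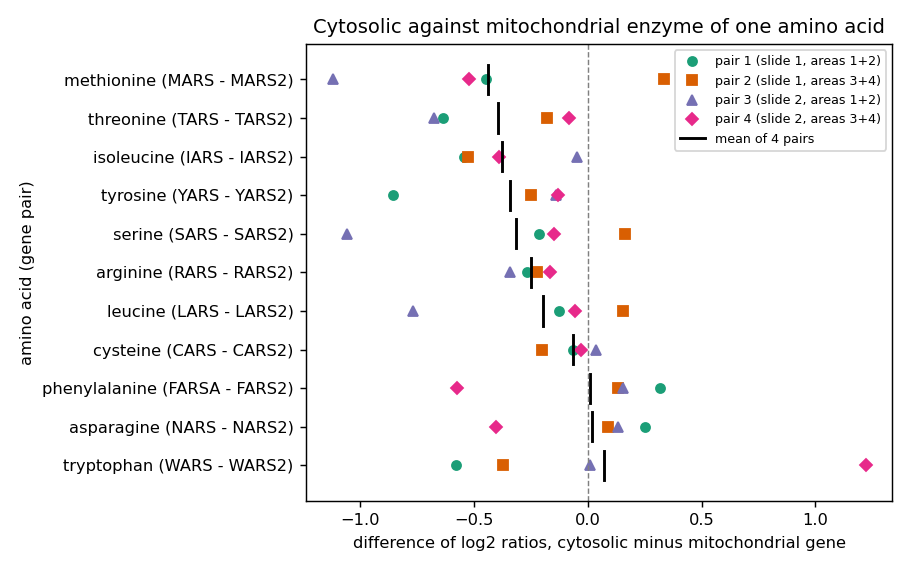
Difference of the log2 ratios, cytosolic minus mitochondrial gene (horizontal axis), for 11 amino acids (rows), with symbols for the 4 dye-swap pairs and black bars for their mean. All 4 symbols lie left of 0 for threonine, isoleucine, tyrosine and arginine. Of these, only arginine had both genes at a mean log2 intensity of at least 9.

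Genes that work beside the synthetases lay mostly above 0, by small amounts. The 17 tested partners included scaffold proteins, transfer RNA maturation enzymes and the mitochondrial amidotransferase subunits. Of them 4 lay below 0 and 13 above, with a median log2 ratio of 0.02, where 48.1% of named genes lay below 0. Some of the 13 were dim and close to 0, such as PUS1 at 0.02 ± 0.10 and AARSD1 at 0.02 ± 0.15, so their sign carries little. MTFMT, which formylates the initiator methionyl-tRNA in mitochondria, had the smallest p of them. It averaged 0.28 ± 0.21 (SD, n = 4 pairs), with an unadjusted p of 0.029 and an adjusted p of 0.641 from limma, and was the only partner of 17 at an unadjusted p under 0.05, a share near that of all named genes (4.6% lower and 4.49% higher). TRNT1, which adds the terminal CCA to transfer RNAs, averaged -0.11 ± 0.10. QRSL1, a subunit of the mitochondrial glutaminyl-tRNA amidotransferase, averaged 0.14 ± 0.14, and TRMU, a mitochondrial transfer RNA modifying enzyme, 0.06 ± 0.05.

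Genes of the amino acid response, the ATF4-linked programme named above, lay mostly below 0, as the cytosolic synthetases did. Of 36 tested, 29 lay below 0 with a median log2 ratio of -0.08, where 48.1% of named genes lay below 0. At an unadjusted p under 0.05, 9 were lower and 0 higher, where 4.6% and 4.49% of named genes were, and 10 lay below 0 in all 4 pairs, where 6.88% did. ATF4 itself averaged -0.33 ± 0.06 (SD, n = 4 pairs), lay below 0 on 8 of 8 arrays and had intensities of 1132, 976, 1344 and 1061 in vitrified pools, against 1411, 1281, 1720 and 1262 in control pools, lower in the vitrified pool in each pair. SLC1A4, a neutral amino acid transporter, averaged -1.31 ± 0.58, and SLC38A2, another, averaged -0.37 ± 0.18. PSAT1, an enzyme of serine synthesis, averaged -0.83 ± 0.39. The adjusted p-values of these 4 genes from limma were 0.508 to 0.515. They are named because they had the smallest p-values of the list. On the other side of 0 lay 7 of the 36, among them ATF3 at 0.09 ± 0.15, CHAC1 at 0.09 ± 0.17 and CTH at 0.08 ± 0.32. Any part of ATF4 in the synthetase values was not tested.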

How the data were processed

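Each of 8 two-colour EMBV3 arrays set a vitrified against a control pool of 10 embryos. The deposited scanner files hold spot intensity and local background in each dye, per the file headers. The authors' deposited value table holds log2 values whose centring and direction the sources used here do not give; it correlated with the ratios at r of 0.688 to 0.819 and served as an alternative. Its probe-to-symbol annotation named the genes. Here 1418 control spots and 8 spots without a name were left out, background was corrected by normexp (offset 50), and ratios were normalized by loess within each array in R 4.3.3 with limma 3.58.1. Probes above the mean plus 2 SD of 153 negative controls on at least 4 of 8 arrays in either group were tested, which left 34912. Arrays of labelled replicate number 1 to 4 recur on both slides in the same dye orientation, so they cannot be the dye swaps that the design text describes. Neighbouring areas, after removal of dye, correlated at a mean r of 0.805, and same-numbered arrays at 0.0936. Neighbouring areas were therefore averaged as 4 pairs and tested against 0 with lmFit and eBayes, two-sided, Benjamini-Hochberg over all probes. Alternatives changed background correction, normalization, filter, probe rule, pairing and slides. Intervals are at 95%. Array number limits the precision. A gene stands by its brightest tested probe. Genes with values by pair are those at an unadjusted p under 0.05 and of 1 sign in 4 pairs (5), filled to 8 by smallest p. Other probes are given where signs differ. Members and lists were chosen with earlier results of these data known.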

Additional observations from a re-analysis of the deposited data

Results flagged for a closer look

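In 3 genes 1 of the 4 pairs stood far from the rest. WARS2 had a log2 ratio of -1.44 in pair 4, against 0.18 to 0.36 in the others. LARS2 had 0.30 in pair 3, against -0.14 to -0.11. KARS had -0.30 in pair 4, against -0.03 to 0.02. Over the 30 sets of 4 pairs examined, chance gives about 1.5 such cases, 1 in 20. FARSA and FARSB, the subunits of the cytosolic phenylalanine enzyme, had both pairs of slide 2 on the other side of 0 from both pairs of slide 1. The share of all named genes with this sign pattern was not counted. FARSA averaged -0.17 on slide 2 and 0.09 on slide 1, a difference of -0.26. FARSB averaged -0.09 on slide 2 and 0.11 on slide 1, a difference of -0.20. Neither difference reached an unadjusted p under 0.05 from limma (FARSA 0.111, FARSB 0.078). The adjusted p of either difference from limma was 1.00.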

How the results depend on the processing

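The labelled replicate numbers do not pair the arrays. With the replicate block, 661 probes and 3 synthetases passed an adjusted p of 0.05 (GARS 0.018, IARS 0.018, SARS 0.028, from limma), and with 8 arrays as independent 381 probes and the same 3 genes passed (GARS 0.025, IARS 0.029, SARS 0.044); both count arrays of a pair separately, and other alternatives called 0. The cytosolic median stayed below 0 in 21 of 21 alternatives (-0.26 to -0.11) and the mitochondrial one ran from -0.05 to 0.03. Several of the 21 could not move it: those that change only the test (replicate numbers, replicate block, independent arrays, slide block) keep the same ratios. The changed background filters also left the cytosolic median at -0.16. Cytosolic minus mitochondrial was -0.21 on the second slide alone, -0.080 with the mean over a gene's probes, -0.25 at a mean log2 intensity of at least 9 and -0.20 over amino acids in both compartments, the last 2 chosen after seeing the data; leaving out a pair gave -0.19 to -0.15. The 8 genes described by pair stayed below 0 in all 20 alternatives. These genes were picked by small p-values in the same data, and alternatives of the test or background filter keep their ratios unchanged. Cytosolic genes at an unadjusted p under 0.05 numbered 2 on the first slide alone, 3 with scaling between arrays after loess and 3 without pair 4, out of a range of 2 to 8. Mitochondrial genes below 0 were 3 of 12 without pair 4 and 10 of 12 without pair 3.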
